A study of Mus musculus with 8 samples.

Results

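The IL-6 family of cytokines and the acute-phase genes were followed on 8 Illumina bead arrays of mouse embryonic hearts and epicardial cultures. The 10 genes were chosen by symbol: the cytokine genes Il6, Il11 and Lif, the receptor genes Il6st and Osmr, the feedback inhibitor gene Socs3, and the acute-phase and innate defence genes Saa3, Serpina3n, Lcn2 and C3. Of these, 9 had a named probe, 16 probes in all, among 19057 genes and 34885 probes with a single gene symbol. C3 was not analysed here. Il6 and Lcn2 were not detected on any array, which left 7 genes with a measured level.

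All samples came from E12.5 mouse embryos on a mixed C57 background, with 1 array per group. The KO heart sample carried an epicardial knockout of both PDGF receptors, a and b, and the control heart sample was wild type. Each was a pool of 3 hearts without the conotruncal region. The cultures were pools of at least 3 epicardial outgrowths, in which the epicardium grew out for 3 days, the heart was removed and the cells were kept for 2 further days. The KO culture came from hearts with the same double receptor deletion. The other cultures were wild type: PDGF-BB at 20 ng/ml for the final 12 h or 24 h, bFGF at 25 ng/ml, TGF-β1 at 10 ng/ml and PDGF-BB at 20 ng/ml together over 2 days (the 3-factor culture), a vehicle culture kept with vehicle for 2 days, and a control culture. The control culture's treatment label also read vehicle, so it and the vehicle culture were the untreated wild type cultures. Source labels of the KO and control cultures named whole heart, but their titles describe cultures and they were used as such. The labels named no Cre driver.

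IL-6 family cytokines bind a specific receptor chain and signal through the shared chain gp130, which Il6st encodes. JAK kinases bound to gp130 phosphorylate STAT3, and STAT3 induces Socs3, whose protein blocks gp130 and so limits the signal. In liver, this pathway acts with IL-1 and NF-κB to switch on the acute-phase proteins, and many of these genes are also induced in fibroblasts, macrophages and mesothelium. Oncostatin M signals through OSMR in the heart, and IL-11 is known as a cytokine that TGF-β1 induces in cardiac fibroblasts.

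Levels below are background-corrected, quantile-normalized log2 intensities. A gene was detected on an array where its detection p was under 0.01. It was called between 2 arrays where it was detected on the brighter one and the log2 difference was 1 or more, which is 2-fold. Detected probes numbered 14557 to 16661 of 45281 per array. The authors' own processed values came in 2 sets of 4 arrays: both hearts with the vehicle and 3-factor cultures, and the KO, control and PDGF-BB cultures. The vehicle culture was therefore in another set than the control culture. No group had a replicate, so a difference between 2 arrays carries no error estimate, and the only spread between like samples is that between the vehicle and the control culture. Pdgfra, a deleted gene, stood at 10.49 in the KO culture, against 11.61 in the control culture, and at 5.80 in the KO heart, against 7.43 in the control heart. Pdgfrb stood at 5.85 in the KO culture, against 6.12 in the control culture, and at 5.11, below detection, in the KO heart, against 5.62 in the control heart. Whether these probes lie in the deleted exons is not known, so they do not check the labels. In the cultures, 11 to 14 of 15 mesothelial and epicardial markers with a probe were detected, and Wt1 had no named probe. Macrophage and leukocyte markers were also present, 14 or 15 of 15 in every culture. In pooled RNA, fewer cells of a type and less RNA per cell cannot be told apart.

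Upstream sequence is given for 4 measured genes, chosen because they were called between cultures and a text search found a binding motif in their window. Serpina3n and Il6st, also called between cultures, had no match and are not shown. The windows, from RefSeq on GRCm38.p6, run from 250 bases before to 50 bases after an annotated start. All 10 genes had at least 1 window and Il11 had 2, giving 11. Capitals mark an AP-1 motif (TGANTCA) in Il11 and Lif, a STAT motif (TTCNNNGAA) in Socs3 and a C/EBP motif (TTGCNNAA) in Saa3. The Il11 window, on the minus strand of chr7:4778092-4778391, is the second of its annotated starts and holds the motif 98 bases before the start. The Lif window, on the plus strand of chr11:4257318-4257617, holds it 228 bases before. The Socs3 window, on the minus strand of chr11:117969317-117969616, holds its STAT motif 154 bases before. The Saa3 window, on the minus strand of chr7:46715627-46715926, holds its C/EBP motif 99 bases before.
Il11: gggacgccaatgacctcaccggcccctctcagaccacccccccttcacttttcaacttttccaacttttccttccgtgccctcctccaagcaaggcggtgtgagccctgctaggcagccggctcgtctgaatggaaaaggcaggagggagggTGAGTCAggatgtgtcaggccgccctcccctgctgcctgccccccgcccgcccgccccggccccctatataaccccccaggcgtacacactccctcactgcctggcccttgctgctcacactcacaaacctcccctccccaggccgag
Lif: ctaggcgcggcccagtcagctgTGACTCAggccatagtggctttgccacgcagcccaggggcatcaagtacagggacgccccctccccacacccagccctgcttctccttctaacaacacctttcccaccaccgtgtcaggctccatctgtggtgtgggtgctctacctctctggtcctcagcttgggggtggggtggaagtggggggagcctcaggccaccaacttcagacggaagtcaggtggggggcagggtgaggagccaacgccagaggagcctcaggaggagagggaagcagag
Socs3: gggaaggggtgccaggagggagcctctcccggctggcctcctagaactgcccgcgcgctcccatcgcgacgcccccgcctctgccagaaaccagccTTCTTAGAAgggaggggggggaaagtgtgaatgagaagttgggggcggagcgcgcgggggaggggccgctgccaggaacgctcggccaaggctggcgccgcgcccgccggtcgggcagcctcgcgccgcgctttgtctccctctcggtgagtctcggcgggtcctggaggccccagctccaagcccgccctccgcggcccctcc
Saa3: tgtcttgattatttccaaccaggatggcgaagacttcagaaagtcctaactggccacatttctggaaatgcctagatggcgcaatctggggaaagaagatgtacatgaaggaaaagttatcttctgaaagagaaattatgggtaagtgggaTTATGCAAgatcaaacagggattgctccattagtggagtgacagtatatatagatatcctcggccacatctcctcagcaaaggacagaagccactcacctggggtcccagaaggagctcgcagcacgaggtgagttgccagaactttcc

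Both strands of 32851 RefSeq windows of this length were searched with the same letters. The STAT motif was present in 8.3% of them, AP-1 in 7.81%, C/EBP in 10.8%, NF-κB in 4.51% and TATAAA in 13.6%. Each of these motifs therefore occurs in many unrelated promoters, and a match is a match of letters only. Il6 had 3 matches, AP-1 at 249, C/EBP at 128 and NF-κB at 44 bases before the start. Osmr had an AP-1 match 3 bases after its start and Lcn2 a C/EBP match 216 bases before. The C3 window held a C/EBP match 45 bases before its start and TATAAA 14 bases after it. The Il6st and Serpina3n windows and the other Il11 window held none of the 5.

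**Figure D1:**
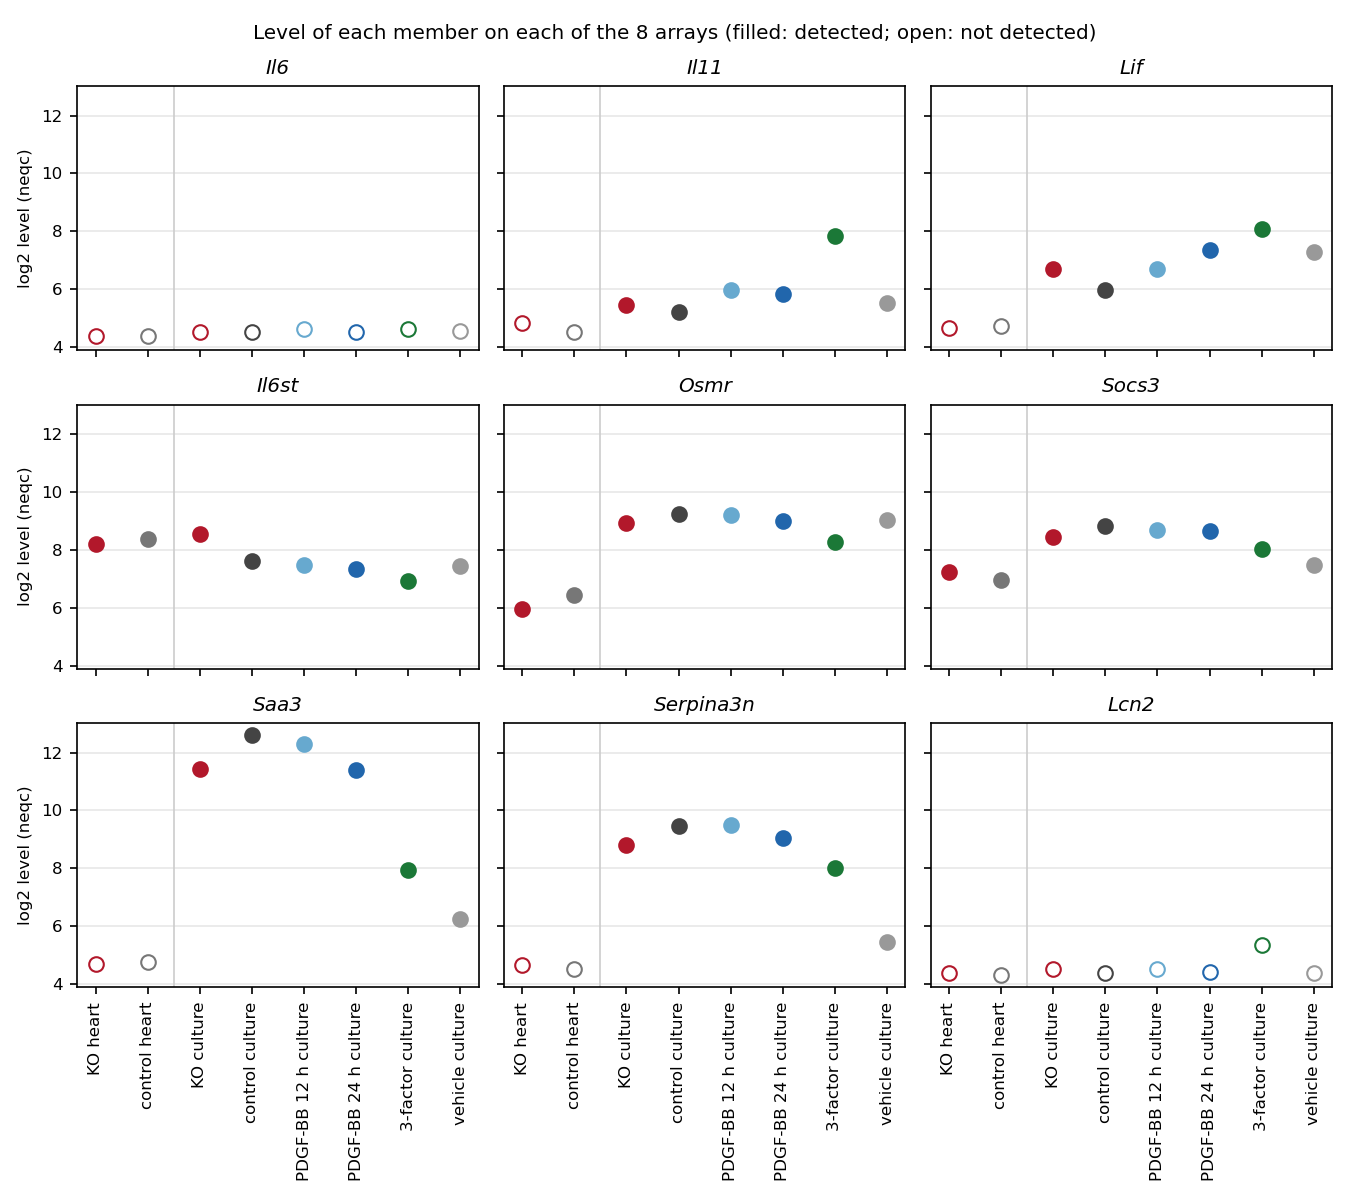
Level of each of the 9 genes with a probe (log2 background-corrected normalized intensity, vertical axis) on each of the 8 arrays, 1 point per array, with filled points where the probe was detected and open points where it was not. Saa3 and Serpina3n are bright in the control, KO and PDGF-BB cultures, dimmer in the 3-factor and vehicle cultures, and undetected in both hearts.

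Among the ligands, Il11 was detected in all 6 cultures, with its highest level under the 3 factors. It stood at 7.82 in the 3-factor culture, 5.97 with PDGF-BB at 12 h, 5.84 at 24 h, 5.44 in the KO culture, 5.54 in the vehicle culture and 5.22 in the control culture. It was not detected in either heart. In the vehicle and control cultures Il11 was near the detection limit, with a detection p of 0.00748 in each. The lowest detected levels there were 5.41 and 5.17, so differences of Il11 from these cultures rest on dim values. The 3-factor culture stood apart, while the other 5 cultures lay within 0.74 of one another. Lif, which encodes leukemia inhibitory factor, a ligand of the receptor pair of LIFR and gp130, was also detected in cultures and not in hearts. Its level was 8.06 in the 3-factor culture, 6.70 in the 12 h PDGF-BB culture, 7.34 in the 24 h PDGF-BB culture, 6.70 in the KO culture, 7.29 in the vehicle culture and 5.96 in the control culture. A second detected Lif probe read 7.81, 5.95, 6.68, 6.39, 7.22 and 5.79 on the same arrays in that order. Both probes placed the 3-factor culture highest, followed by the vehicle culture and the 24 h PDGF-BB culture, which traded places between probes, and the control culture lowest. The other 3 Lif probes were detected on at most 1 array. Il6 itself read 4.39 to 4.62 on all arrays and its lowest detection p was 0.184.

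The receptors were present everywhere, and among the cultures they varied less than Il11 and Lif. Il6st, the gp130 gene, was detected on all 8 arrays. It stood at 8.20 in the KO heart, against 8.39 in the control heart, and at 8.54 in the KO culture, against 7.61 in the control culture. The PDGF-BB cultures had 7.47 at 12 h and 7.33 at 24 h, and the 3-factor culture 6.94, against 7.44 in the vehicle culture. The KO culture was thus the brightest for Il6st of the 8 arrays and the 3-factor culture the dimmest. Osmr, the oncostatin M receptor gene, stood at 5.96 in the KO heart, against 6.42 in the control heart. In cultures it stood at 8.92 with the knockout, 9.20 after 12 h of PDGF-BB, 9.0 after 24 h and 8.29 with the 3 factors, against 9.02 in the vehicle culture and 9.25 in the control culture. Every culture was above both hearts, and the 3-factor culture was the lowest of the cultures.

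Socs3, the inhibitor, was likewise detected on all 8 arrays. It read 7.25 in the KO heart, against 6.95 in the control heart. Among cultures it read 8.45 in the KO culture, 8.69 after 12 h of PDGF-BB, 8.66 after 24 h, 8.04 in the 3-factor culture, 7.48 in the vehicle culture and 8.82 in the control culture. The vehicle culture was the lowest of the cultures and the control culture the highest, so every other culture lay between the untreated ones.

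The acute-phase genes had the widest ranges. Saa3, which encodes serum amyloid A3, a form made mainly outside the liver by macrophages, adipocytes and epithelia, was undetected in both hearts and detected in all 6 cultures. Its level was 11.42 in the KO culture, 12.28 after 12 h of PDGF-BB, 11.40 after 24 h, 7.95 in the 3-factor culture, 6.26 in the vehicle culture and 12.61 in the control culture. On the scanner's own scale, before any normalization, the same probe read 3333, 5232, 2857, 249.8, 100.4 and 7971 in that order. The arrays differed in brightness on that scale. The highest intensity was 26936.5 in the vehicle culture and 27914.2 in the 3-factor culture, against 45001.6 to 53265.6 in the other cultures. The 4 arrays of the set with the control culture were all far above the vehicle and 3-factor cultures. Serpina3n encodes an inhibitor of serine proteases that is induced in inflammation, and its level was 8.79 in the KO culture, 9.50 after 12 h of PDGF-BB, 9.06 after 24 h, 8.01 in the 3-factor culture, 5.46 in the vehicle culture and 9.47 in the control culture. For Serpina3n the vehicle culture alone stood far below the others, with the 3-factor culture next. Lcn2, which encodes the iron-siderophore binding protein lipocalin 2, read 4.30 to 5.35 and was below detection on every array. Its brightest array was the 3-factor culture, with a detection p of 0.0246.

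Of the 7 measured genes, 4 were called between the untreated cultures, against a background of 10.6% of 9757 measured genes (3.34% higher, 7.23% lower). Lif was higher in the vehicle culture than in the control culture by 1.33 on the log2 scale, 2.51-fold. Socs3 was lower in the vehicle culture by 2.52-fold, Serpina3n by 16.1-fold and Saa3 by 81.6-fold. The vehicle level of Serpina3n (5.46, detection p 0.00855) was close to the lowest detected level of that array, 5.41. Differences of Serpina3n from the vehicle culture, here and below, therefore rest on a level near the detection limit. The Saa3 gap was the largest of all 9757 measured genes, and 9 genes, itself included, had a gap at least as large as that of Serpina3n. Gaps at least as large as those of Lif and Socs3 were found in 4.58% and 4.56% of genes. Il11, Osmr and Il6st differed by 1.24-fold or less, a gap that 56.9% or more of the genes reached. With each array centred on its median instead, Lif was no longer called (0.83) and the calls were 0 higher and 3 lower, against 1 higher and 3 lower. The vehicle and control cultures lie in different array sets, and culture and set cannot be told apart.

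Other inflammatory genes were also lower in the vehicle culture than in the control culture. Of 11 measured acute-phase genes, Saa3 and Serpina3n included, 5 were called lower and 0 higher, with a median difference of -0.54 against 0.01 over all measured genes. The others were Hp, haptoglobin, at least 2.26-fold, Itih4 at least 1.71-fold and Serpina3f at least 1.19-fold; here and below such bounds are against the dimmest detected probe of an array on which the gene itself was undetected. Of 16 genes of the NF-κB and IL-1 pathways, 8 were called lower and 0 higher (median -1.06). They included Ccl2, a monocyte chemokine (-2.27), the toll-like receptor gene Tlr2 (-1.77), Tnf (-1.42) and the IL-1 receptor antagonist gene Il1rn (at least 2.67-fold lower). Among 12 STAT3 targets, Socs3, the adhesion gene Icam1 (-2.09), Mcl1 (-1.18) and Bcl6 (-1.18) were lower and Tnfrsf12a (1.04) was higher. Complement genes were called in 3 of 5, with C2 (-1.68) and Cd55 (at least 2.22-fold) lower and Masp1 (1.02) higher. With median centring neither Tnfrsf12a nor Masp1 was called higher, and the counts were 0 higher and 4 lower for STAT3 targets and 0 higher and 3 lower for complement. No gene was called among 5 receptors and 5 JAK and STAT genes. The 15 macrophage and leukocyte markers summed to a linear level of 24432 in the vehicle culture, against 60365 in the control culture, and 5 of 15 were lower; their part in the result was not tested. Cardiomyocyte markers were lower in 5 of 7, with Nppb higher. Erythroid markers were higher in 4 of 5, and smooth muscle and pericyte markers in 5 of 9 (median 1.01).

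**Figure D2:**
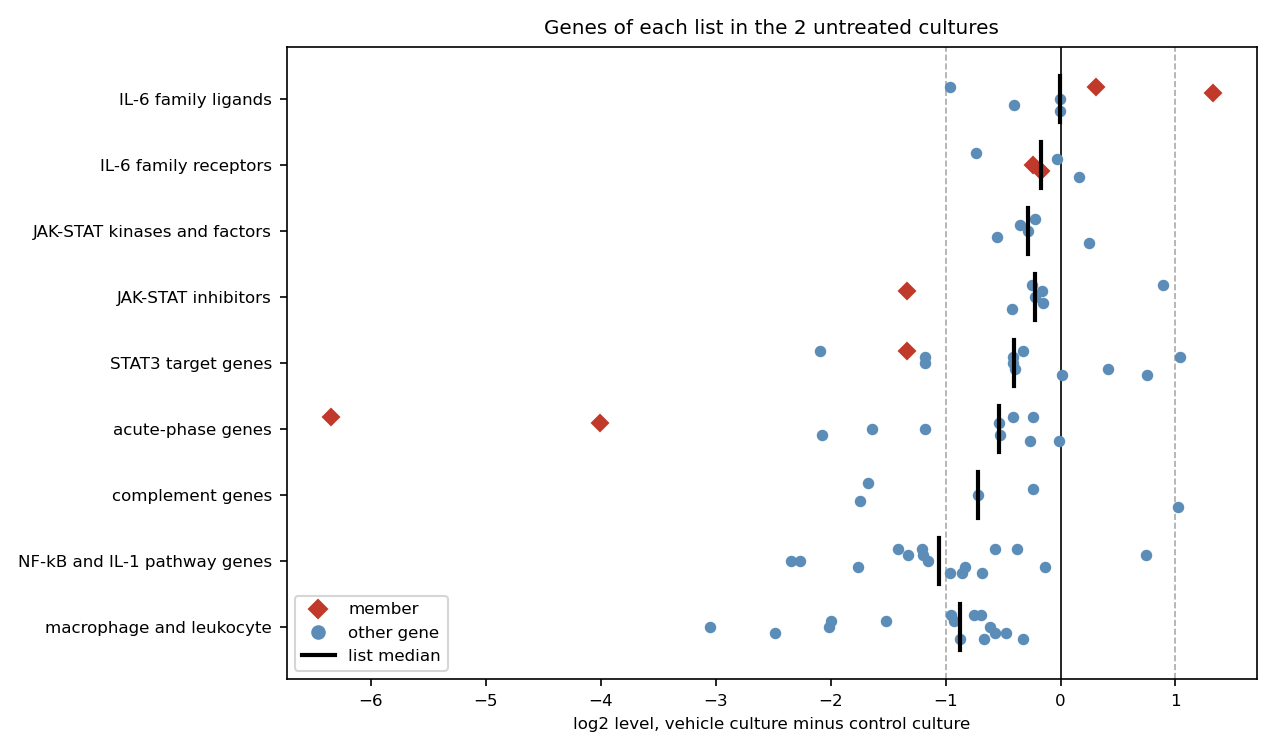
Difference of the vehicle minus the control culture (log2 scale, horizontal axis) for measured genes of the pathway lists and the macrophage and leukocyte list. There is 1 row per list and 1 point per gene, with the list median as a bar and dashed lines at 1 and -1. Diamonds mark the chosen genes that were measured. The NF-κB and IL-1 genes and the acute-phase genes lie mostly below 0, with medians of -1.06 and -0.54, and Saa3 is the farthest point at -6.35.

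Between the KO and control hearts, 0 of the 3 genes measured there were called, where 0.662% of 8915 measured genes were called. The differences were -0.19 for Il6st, -0.46 for Osmr and 0.29 for Socs3 on the log2 scale. No gene of the ligand, receptor, JAK-STAT, inhibitor, STAT3 target, acute-phase, complement or NF-κB lists was called in the hearts. The hearts hold the epicardium as 1 tissue among others, and the macrophage list summed to 3447 in the KO heart and 4001 in the control heart.

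In the KO culture 1 of 7 genes was called against the control culture, where 4.17% of 9762 measured genes were and 2.28% were lower. Saa3 was lower, at 11.42 in the KO culture and 12.61 in the control culture, a difference of -1.19. Il6st was 0.93 higher and Lif 0.74 higher, both short of the 2-fold rule, and Serpina3n was 0.68 lower. Against the vehicle culture, which lies in the other array set, the KO culture had 3 of 7 higher, Il6st (1.10), Saa3 (5.16) and Serpina3n. There 14.7% of genes were called and 8.95% were higher. The direction of Saa3 thus turned with the untreated culture used, and that of Il6st did not. Il6st in the KO culture was 0.93 above the brighter of the untreated cultures, whereas Saa3 and Serpina3n lay between them.

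In the pathway lists the KO culture had few calls against the control culture. Of 5 JAK and STAT genes, Stat5a was higher (1.21) and Jak1, a kinase that binds gp130, was lower (-1.10). Icam1 was lower (-1.03) among 12 STAT3 targets. Of 12 acute-phase genes, Mt1, the metallothionein gene, was higher (1.15), and Saa3 and Serpina3f (at least 1.33-fold) were lower, or 1 higher and 1 lower without background correction. Masp1, a protease of the lectin pathway of complement, was lower (-1.87) among 6 complement genes, and Il1rap, an IL-1 receptor chain gene, was lower (-1.04) among 15 NF-κB and IL-1 genes. None of 6 ligands, 5 receptors or 7 inhibitors was called. Macrophage and leukocyte markers ran the other way, summing to 98468 in the KO culture, against 60365 in the control culture, with Fcer1g, C1qa, C1qb and C1qc higher among 15 measured; their part in the Saa3 and Il6st differences was not tested. Cardiomyocyte markers were lower in 5 of 7 and erythroid markers in 3 of 4.

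**Figure D3:**
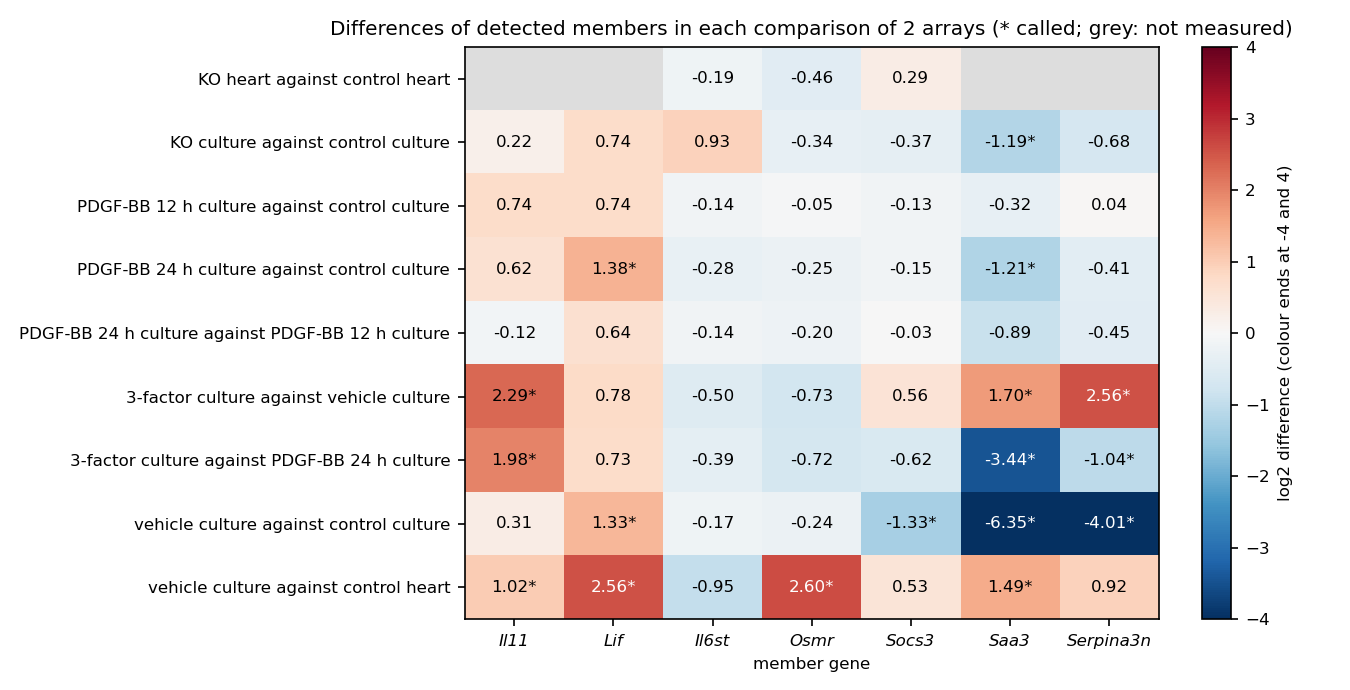
Difference in level (log2 scale, printed in each cell and shown by colour) of the 7 detected genes (columns) in each comparison of 2 arrays (rows), the first-named array minus the second, with an asterisk for called genes and grey where a gene was not measured. The 3-factor culture against the vehicle culture has 3 asterisks, all higher, for Il11, Saa3 and Serpina3n, and the vehicle against the control culture has Saa3 at -6.35 and Serpina3n at -4.01, beyond the end of the colour scale.

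PDGF-BB left most of the genes near the control culture at both times. At 12 h, 0 of 7 were called, where 0.558% of 9686 measured genes were. Il11 and Lif both differed by 0.74 and the other 5 by at most 0.32 in either direction. At 24 h, 2 of 7 were called, where 1.23% of 9698 were, 0.412% higher and 0.815% lower. Lif was 1.38 higher and Saa3 1.21 lower than in the control culture. The second detected Lif probe differed by 0.16 at 12 h and by 0.89 at 24 h, which is below the 2-fold rule. Between the times, 24 h minus 12 h, 0 of 7 were called, where 0.366% of 9555 genes were, with Lif 0.64 higher and Saa3 0.89 lower. Of the wider lists, Il1r1, the IL-1 receptor gene, was higher at 12 h (at least 1.72-fold), and Il33, an IL-1 family cytokine gene, was lower at 24 h (at least 1.79-fold). Serpina3f was lower at 24 h than at 12 h (at least 1.82-fold). Macrophage markers summed to 54152 at 12 h and 46919 at 24 h, against 60365 in the control culture; their part in the Saa3 difference was not tested.

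Against the vehicle culture both PDGF-BB times gave another picture. Socs3, Saa3 and Serpina3n were higher at 12 h, where 6.86% of genes were called and 4.5% higher, and at 24 h, where 5.81% were called and 3.8% higher. Saa3 was 5.14 higher at 24 h. Lif at 24 h was 0.05 from the vehicle culture while the vehicle culture itself was 1.33 above the control culture, close to the 1.38 of the PDGF-BB culture. The second detected Lif probe differed from the vehicle culture by -0.54 at 24 h. At 12 h it differed by -1.27, which meets the 2-fold rule, against -0.59 for the brighter probe.

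Under the 3 factors, Il11 was the one gene of the 7 called in the same direction against both untreated cultures, by each gene's brightest probe. Saa3 and Serpina3n were called in opposite directions. Against the vehicle culture, which was kept for the same 2 days, 3 of 7 were called and all 3 were higher, where 10.3% of 9183 measured genes were called and 5.29% were called higher. Il11 was 2.29 higher, Serpina3n 2.56 and Saa3 1.70 on the log2 scale. Lif was 0.78 higher by its brighter probe and 0.59 by the other, and Socs3 0.56 higher. The receptors had differences of -0.73 for Osmr and -0.50 for Il6st. Against the control culture, where 16.8% of genes were called, 6.68% higher and 10.1% lower, Il11 and Lif (2.10) were higher, and Saa3 (-4.66) and Serpina3n (-1.45) were lower. With median centring, that split of 2 higher and 2 lower became 2 higher and 5 lower. Il11 kept its direction, and the acute-phase pair turned.

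Other ligand genes of the family were also higher under the 3 factors than in the vehicle culture. Of 6 measured ligands, Il11, Ebi3 (2.17) and Clcf1 (at least 2.50-fold) were called higher and none lower, with a median of 1.09 against 0.00 over all genes. EBI3 is a subunit of IL-27 and IL-35, and CLCF1 is a ligand of the CNTF receptor. None of 4 receptors was called (median -0.62). Of 7 inhibitors, Ptpn6, a tyrosine phosphatase gene of blood cells, was higher (1.37). Of 11 STAT3 targets, Timp1, an inhibitor of matrix proteases (1.41), Icam1 (1.24) and Junb (1.13) were higher and none lower. Of 6 acute-phase genes, Saa3 and Serpina3n were higher and Ptx3, the pentraxin 3 gene, was lower (-1.40). The complement inhibitor gene Serping1 was lower (-2.69). Of 14 NF-κB and IL-1 genes, 5 were higher and none lower, among them Il1b (at least 6.44-fold), Tnf (2.67), Tnfaip3 (at least 4.39-fold) and Il1a (at least 2.95-fold). The macrophage list summed to 55895 in the 3-factor culture, against 24432 in the vehicle culture, and 7 of 14 markers were higher; their part in these differences was not tested. Mesothelial and epicardial markers were lower in 8 of 13 and higher in 1, fibroblast markers lower in 5 of 10 and higher in 1 (median -1.34), and erythroid markers lower in 4 of 4 (median -6.43). Cardiomyocyte markers were higher in 4 of 7 and lower in 2.

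PDGF-BB alone was given for 24 h and the mixture for 2 days, and the arrays lie in different sets, so the following values are set side by side. Il11 stood at 7.82 in the 3-factor culture and 5.84 in the 24 h PDGF-BB culture, and Lif at 8.06 with the 3 factors and 7.34 with PDGF-BB. The calls below use this brighter Lif probe. The second detected Lif probe read 7.81 and 6.68, a difference of 1.13, which meets the 2-fold rule. Saa3 stood at 7.95 in the 3-factor culture and 11.40 with PDGF-BB, and Serpina3n at 8.01 with the 3 factors and 9.06 with PDGF-BB. By the 2-fold rule Il11 was higher with the 3 factors, and Saa3 and Serpina3n lower, where 13.7% of 9507 genes were called, 6.03% higher and 7.72% lower. Without background correction the calls were 1 higher and 1 lower. Of 10 acute-phase genes 6 were lower with the 3 factors (median -1.03 against 0.03 over all genes), with Hp (at least 4.03-fold), Lbp (at least 1.48-fold), Itih4 (at least 1.31-fold) and Ptx3 (-1.02) besides that pair. Among 16 NF-κB and IL-1 genes 4 were higher, including Il1b (2.70) and Il1a (at least 3.23-fold), and 3 lower, including Ccl2 (-2.61) and Cxcl1 (at least 1.76-fold). That split was 2 and 3 with median centring, and 3 and 1 without background correction. Markers of several other cell types were lower too with the 3 factors, mesothelial and epicardial ones in 7 of 14 (1 higher, median -1.12). Fibroblast markers were lower in 6 of 10 (median -1.71) and erythroid ones in 4 of 4. Cardiomyocyte markers ran the other way, with 3 of 7 higher and 1 lower (median 0.53). The macrophage list summed to 55895 in the 3-factor culture and 46919 in the 24 h PDGF-BB culture. Of 14 macrophage markers measured, 1 was higher and 3 were lower (median 0.30). The part of these cell types in the differences above was not tested.

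**Figure D4:**
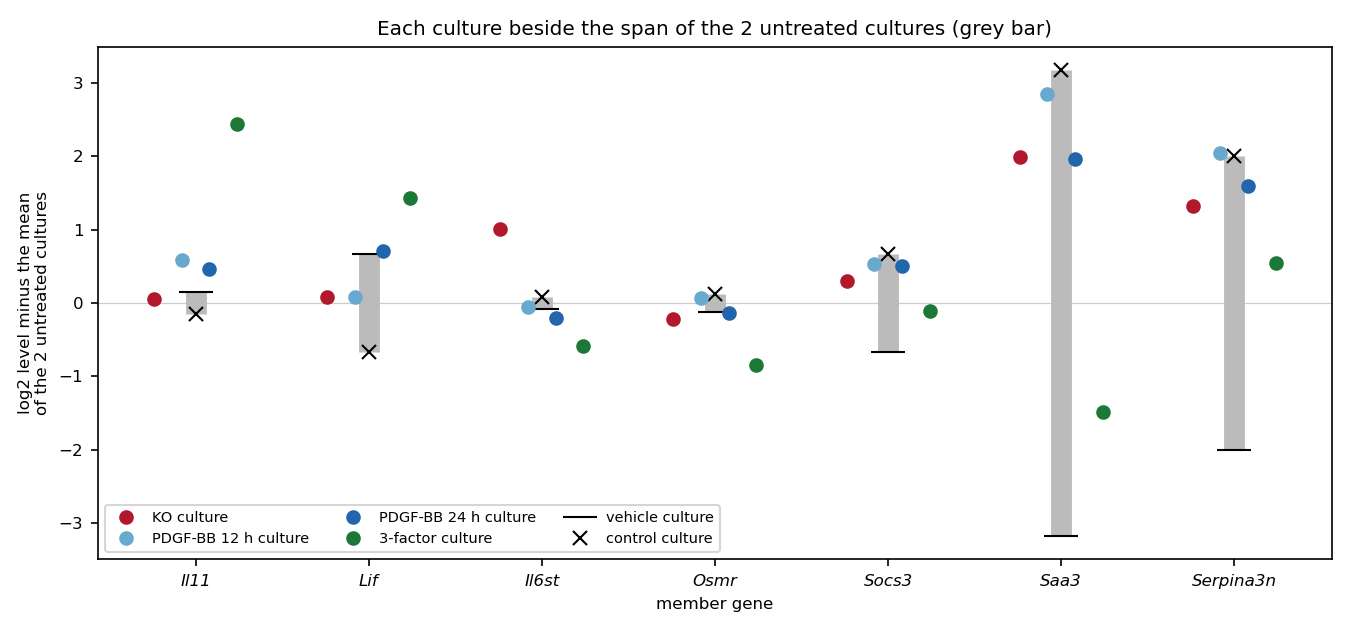
Level of each of the 7 detected genes (horizontal axis) in the KO, PDGF-BB and 3-factor cultures as points, on the log2 scale relative to the mean of the vehicle and control cultures (vertical axis), beside a grey bar that spans from the vehicle culture (line) to the control culture (cross). Il11 of the 3-factor culture lies 2.29 above the top of its bar, while the bars of Saa3 and Serpina3n are so long that the KO, PDGF-BB and 3-factor cultures fall inside them, except Serpina3n at 12 h of PDGF-BB, which is 0.04 above.

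Set against the span between the untreated cultures, the KO culture had 5 of 7 genes between them, Il6st above and Osmr below. The 12 h PDGF-BB culture also had 5 between and 2 above, Il11 by 0.43 and Serpina3n by 0.04. At 24 h, 3 lay between, with Il11 above by 0.31 and Lif by 0.05, and Il6st and Osmr below. By the second detected Lif probe, the 24 h culture (6.68) lay between the control (5.79) and vehicle (7.22) cultures. In the 3-factor culture Socs3, Saa3 and Serpina3n lay between, Il11 was above by 2.29 and Lif by 0.78, and Il6st and Osmr were below by at most 0.73. Genes called in the same direction against each untreated culture were counted by the probe with the highest mean level. They numbered 0 of 7 in the KO culture (2.4% of all genes) and 0 of 7 after 12 h of PDGF-BB (0.141%). After 24 h the count was 0 of 7 (0.0707%). With the 3 factors it was 1 of 7, Il11 (5.47%, or 2.49% in the higher direction).

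A limma fit with the vehicle and control cultures as a group of 2 had 1 residual degree of freedom and gave no gene of 10722 an adjusted p under 0.05 in any of its 4 contrasts (0%). Unadjusted p was under 0.05 for 3.42% of genes in the KO culture, 0.205% after 12 h of PDGF-BB, 0.168% after 24 h and 6.86% with the 3 factors. Il11 in the 3-factor culture differed by 2.44 (SE 0.38), with limma adjusted p = 0.282. Il6st in the KO culture differed by 1.01 (SE 0.36), with limma adjusted p = 1.0. In the 3-factor culture Lif differed by 1.44 (SE 0.63, limma adjusted p = 0.781) and Osmr by -0.85 (SE 0.37, limma adjusted p = 0.779). The standard errors of Saa3 and Serpina3n were 2.51 and 1.61, so that differences of several-fold could not be resolved for them.

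Several genes of the family were higher in untreated cultures than in the control heart pool. Between the vehicle culture and the control heart, arrays of the same set, 4 of 7 genes were higher, where 31% of 9661 genes were called and 16% higher. The count was 2 of 7 without background correction, with the authors' values or with an offset of 50. Osmr was 2.60 higher, Lif at least 3.51-fold, Saa3 at least 1.72-fold and Il11 at least 1.04-fold. Against the same heart, the control culture had 5 of 7 higher where 36.5% of genes were called and 20% higher: Osmr, Socs3, Lif at least 1.40-fold, Serpina3n at least 15.9-fold and Saa3 at least 140-fold. Il6st ran the other way without reaching the 2-fold rule, at -0.95 in the vehicle culture and -0.78 in the control culture against that heart. All 5 measured ligand genes were higher in the vehicle culture than in the control heart, Ctf1, the cardiotrophin gene, by 1.63, Osm, oncostatin M, at least 1.62-fold and Ebi3 at least 1.55-fold. Il6ra, the IL-6 receptor gene, was higher (at least 2.94-fold) and Il27ra lower (at least 6.73-fold). Among the inhibitors Ptpn6 (2.73) and Socs2 (1.5) were higher. Of 11 STAT3 targets 7 were higher, including Cebpb (3.31), Timp1 (3.21), Junb (2.55) and Bcl6 (at least 5.53-fold). Of 8 acute-phase genes 2 were higher, Saa3 and Ptx3 (at least 9.03-fold), and 2 lower, Lbp (at least 3.45-fold) and Itih3 (at least 1.59-fold), or 1 higher and 2 lower without background correction. All 3 measured complement genes were higher, Serping1 (4.81), C2 (at least 4.74-fold) and Masp1 (1.51). The macrophage list summed to 24432 in the vehicle culture, against 4001 in the control heart, with 13 of 14 markers higher, and cardiomyocyte markers were lower in 10 of 11; their part was not tested.

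Genes with the most similar profiles over the 6 cultures were found by Pearson correlation of log2 level among 3278 genes that were detected in a culture and ranged by at least 1. For Saa3 these were Itgb2, a leukocyte integrin gene (r = 0.993), Crybg3 (0.992) and Pabpc1 (0.990). For Serpina3n they were Trbv13-2 (0.993), Rb1 (0.992) and Tapbp (0.986). For Il11 they were Apol9b (0.995), Ttll5 (0.995) and Prkca (0.987), and for Lif Tinagl1 (0.985), Rhoc (0.970) and Tug1 (0.964). Such values over 6 arrays that share the same 2 sets are a description, and no likeness of function follows from them. Some of the named genes were below detection in part of the cultures. Itgb2 and Crybg3 were so in the 3-factor and vehicle cultures and Trbv13-2 in the vehicle culture. Apol9b was below detection in the KO, control and vehicle cultures. The correlations of these genes thus rest in part on background levels.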

How the data were processed

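Bead intensity and a detection p-value per probe were exported by the authors without normalization with BeadStudio 3.3, per the submitters' processing notes. The deposited processed values are linear intensity values with identical distributions within each of 2 sets of 4 arrays, so they had been quantile-normalized per set by a method not given in the sources used here. Here the non-normalized intensities were corrected with limma 3.58.1 in R 4.3.3 (neqc, background from the detection p-values, offset 16, quantile normalization over all 8 arrays) and put on the log2 scale. Python 3.11.15 with pandas 2.3.3, numpy 2.4.6 and matplotlib 3.10.9 made the summaries. The deposited probe annotation gave 34885 of 45281 probes 1 gene symbol, 18 several and 10378 none. Symbols were updated by Entrez identifier, and a gene took its probe with the highest mean level.

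Groups followed the labels, 1 array each. Measured genes had a detection p under 0.01 on either array of a comparison. Called genes were detected on the brighter array with a log2 difference of 1 or more. For a gene undetected on the dimmer array, the fold bound divides the brighter level by the lowest level of a detected probe there, or by the gene's own level where higher. The limma fit treated the vehicle and control cultures as a group of 2 and adjusted p by Benjamini-Hochberg over 10722 genes. A self-test used simulated arrays with planted differences, independent noise and no difference between sets. Such arrays cannot check the fit against the gap between the untreated cultures. The number of arrays limits the precision, and p-values measure only the spread between 2 pooled cultures. Alternatives changed background correction, normalization, offset, detection threshold, probe rule and untreated culture. Named pathway genes are the called genes of each list with the largest difference, at most 4 per list and comparison, and for the 4 widest-ranging of the 10 genes the 3 most correlated ones. The genes, lists and rules were chosen with earlier results of these data known.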

Additional observations from a re-analysis of the deposited data

Results flagged for a closer look

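3 genes had opposite signs in paired contrasts; none of these differences was tested, and each rests on 1 array per group. Il6st was higher in the KO than in the control culture by 0.93 on the log2 scale, while the KO minus control heart difference was -0.19. Socs3 differed by -0.37 in the KO minus control culture and by 0.29 in the KO minus control heart. Serpina3n with PDGF-BB minus the control culture differed by 0.04 at 12 h and by -0.41 at 24 h. None of the 6 differences reached the 2-fold rule.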

How the results depend on the processing

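Over the processing alternatives, none of 612 differences of the 9 genes with a probe was a called value that changed sign, and 28 moved by more than 0.5 on the log2 scale. With the other untreated culture, 4 of 54 were called values that reversed, and 18 moved. Values short of a call that changed sign were not counted as reversed. Among them were Saa3 at 12 h of PDGF-BB (-0.32 against control, 6.03 against vehicle), Serpina3n in the KO culture (-0.68 and 3.33) and Lif there (0.74 and -0.58). Reversed were Saa3 in the KO culture (5.16 against vehicle, -1.19 against control), Saa3 with PDGF-BB at 24 h (5.14 against vehicle, -1.21 against control), Saa3 in the 3-factor culture (-4.66 against control, 1.70 against vehicle) and Serpina3n there (-1.45 against control, 2.56 against vehicle). Called counts against the vehicle culture were 3 in the KO culture (1 against control) and 3 with PDGF-BB at 12 h (0 against control). Calls in the same direction against both untreated cultures, an alternative chosen after seeing the data, were 0 in the KO culture, 0 with PDGF-BB at 24 h and 1 with the 3 factors, against 1, 2 and 3. With the mean of all probes, PDGF-BB at 24 h had 1 call, since Lif (0.54) then averages in undetected probes. Between the vehicle culture and the control heart 4 genes were called, and 2 without background correction, 2 with the authors' values and 2 with an offset of 50, which shrink differences of dim genes. limma with median centring gave 87 genes with adjusted p under 0.05, against 0, none of them among the 7. Il11 then had an adjusted p of 0.12, and its 3-factor minus vehicle difference was 1.52 to 2.29 over the processing alternatives. Median centring moved the median of all genes between the vehicle and control cultures to -0.49 and tilted calls over all genes to lower: 103 higher and 1892 lower against 326 and 705 for that pair, 21 and 309 against 40 and 79 for PDGF-BB at 24 h, 356 and 1026 against 573 and 734 for 3 factors over PDGF-BB, and 285 and 2140 against 651 and 982 for 3 factors over control. Counts over all genes ranged from 13 to 60 in the KO heart (59 reported), 215 to 496 in the KO culture (407), 17 to 136 at 12 h (54), 49 to 330 at 24 h (119), 14 to 44 between the times (35), 557 to 954 for 3 factors against vehicle (950), 749 to 1382 against PDGF-BB (1307), 516 to 1995 for vehicle against control culture (1031) and 2077 to 3002 against the heart (2994). No paired analysis was possible because each group has 1 array. Il6 and Lcn2 lay within the background on every array, so changes in them could not be seen.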

Other observations

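Hp, the haptoglobin gene, followed the split of the array sets like Saa3. It read 7.17 in the KO culture, 7.41 after 12 h of PDGF-BB, 7.58 after 24 h and 6.59 in the control culture. It was undetected in the 3-factor culture, the vehicle culture and both hearts. Neutrophil markers were mostly undetected, with 0 to 2 of 10 detected on each array, so a neutrophil source list could not be followed. Of those detected, S100a8 was called higher in the KO culture (7.86) than in the control culture (5.38). It was also called higher in the 3-factor culture (6.47) than in the vehicle culture (4.63, undetected). Erythroid markers with a probe summed to a linear level of 14852 in the vehicle culture, against 964 in the control culture, and to 135 in the 3-factor culture.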
